A study of Mus musculus with 6 samples.

Results

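Genes of the endoplasmic reticulum (ER) unfolded protein response were followed in colon RNA of mice labelled as lacking interleukin 10 and of wild-type mice. The set held 34 gene symbols, matched by name to the 54532 gene rows of the deposited expression table. They were listed by known role in the response rather than by measured value, though earlier results of these data were known. All 34 symbols were found, in 35 rows, because Ddit3 had a second row of 105 bases that held no read in any library. The IL10-KO group was 3 colon libraries from mice of genotype IL10-/- and the WT group 3 colon libraries from wild-type mice, all C57BL/6, 56 days old and made from whole, flash-frozen colon. Interleukin 10 is an anti-inflammatory cytokine, and its loss in mice is widely used to model chronic colitis. The knockout allele, the presence of colitis and whether each library came from its own mouse are not stated in the labels, so any p-value here reflects how far these libraries spread.

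The unfolded protein response adjusts the protein folding capacity of the ER to the load of secreted and membrane proteins. The kinase and RNase IRE1 (Ern1, with its mucosal relative Ern2), the kinase PERK (Eif2ak3) and the membrane-bound factor ATF6 (Atf6) sense unfolded proteins. IRE1 splices Xbp1 mRNA into the form that encodes an active factor, PERK slows translation while favouring that of Atf4, and ATF6 is cut in the Golgi to release a factor. Their targets are chaperones, disulfide isomerases, genes of ER-associated degradation (ERAD) and, through ATF4, amino acid metabolism and the factor CHOP (Ddit3). In the gut the response is best known from cells that secrete much protein, such as goblet cells and plasma cells. Gene-level values hold neither the splicing of Xbp1 nor the translation of Atf4 nor the cleavage of Atf6.

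Values were FPKM, that is reads scaled by gene length and by a library size that the authors set. Reads recovered from them numbered 13107941 to 15797928 per library. The libraries labelled WT differed more among themselves than those labelled IL10-KO: across genes, which are not independent replicates, pairs of IL10-KO libraries had a Pearson's r of 0.935 to 0.961 and pairs of WT libraries an r of 0.795 to 0.864 on the log2 scale. Mitochondrial genes took 8.61 to 22% of reads in the libraries labelled IL10-KO, 20.3% in WT library 1, 11.7% in WT library 2 and 43.4% in WT library 3. Il10 itself was at 10.6 to 14.5 FPKM in the libraries labelled IL10-KO and at 0.173 to 0.757 FPKM in the WT-labelled ones, so its RNA was higher under the knockout label, and all directions given here take the labels at face value. The intestinal epithelial marker Cdx2 had reads in every library, at 64.7 to 66.8 FPKM in the libraries labelled IL10-KO and at 13.3 to 147 FPKM in the WT-labelled ones. Of 6 small intestinal genes, Apoa4 and Defa24 had no reads in any library. Fabp6 was at 12.9 FPKM in IL10-KO library 1, at 9.83 FPKM in WT library 1 and at 0.158 to 1.28 FPKM in the others. Lyz1 was at 9.16 FPKM in IL10-KO library 1 and at 0.194 to 2.45 FPKM in the others. Lct and Sis were at 0.0677 FPKM or less in every library. RNA of the pancreas stood out in IL10-KO library 3, where the acinar protease gene Ctrb1 was at 45.7 FPKM and at 0 in the other 5 libraries. In whole colon, fewer cells of a type and less RNA per cell cannot be told apart.

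Most members had higher mean values under the IL10-KO label, with no member past the threshold. Of the 34 symbols, 33 had a mean of at least 1 FPKM over the 6 libraries and were tested, and Trib3 was too low. By limma with Benjamini-Hochberg adjustment over 12668 genes, 0 of 33 were called higher (0.182% of all genes tested) and 0 were called lower (0% of all genes tested). The adjusted p lay between 0.125 and 0.99. Voom on the recovered reads also called 0. At an unadjusted p under 0.05, 8 members were higher, against 6.14% of all genes, and 0 were lower, against 4.03%. The log2 fold change, IL10-KO minus WT on the log2(FPKM + 1) scale, was above 0 for 27 of 33 members and for 54.1% of all genes. It was above 0.5 for 16 members and 16.6% of all genes, and above 1 for 6 members and 5.88% of all genes. Its median was 0.48 over the members tested and 0.04 over all genes tested. All 3 libraries labelled IL10-KO lay above all 3 labelled WT for 8 members, against 8.84% of all genes, and below them for 0 members, against 7.89%. Chac1 passed the filter through the libraries labelled IL10-KO alone. For the 32 members with a mean of at least 1 FPKM in each group, 26 were above 0, 7 had all IL10-KO values above all WT values, and the median was 0.47. The filter in each group was not applied to all genes, so these counts have no matching share.

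**Figure D1:**
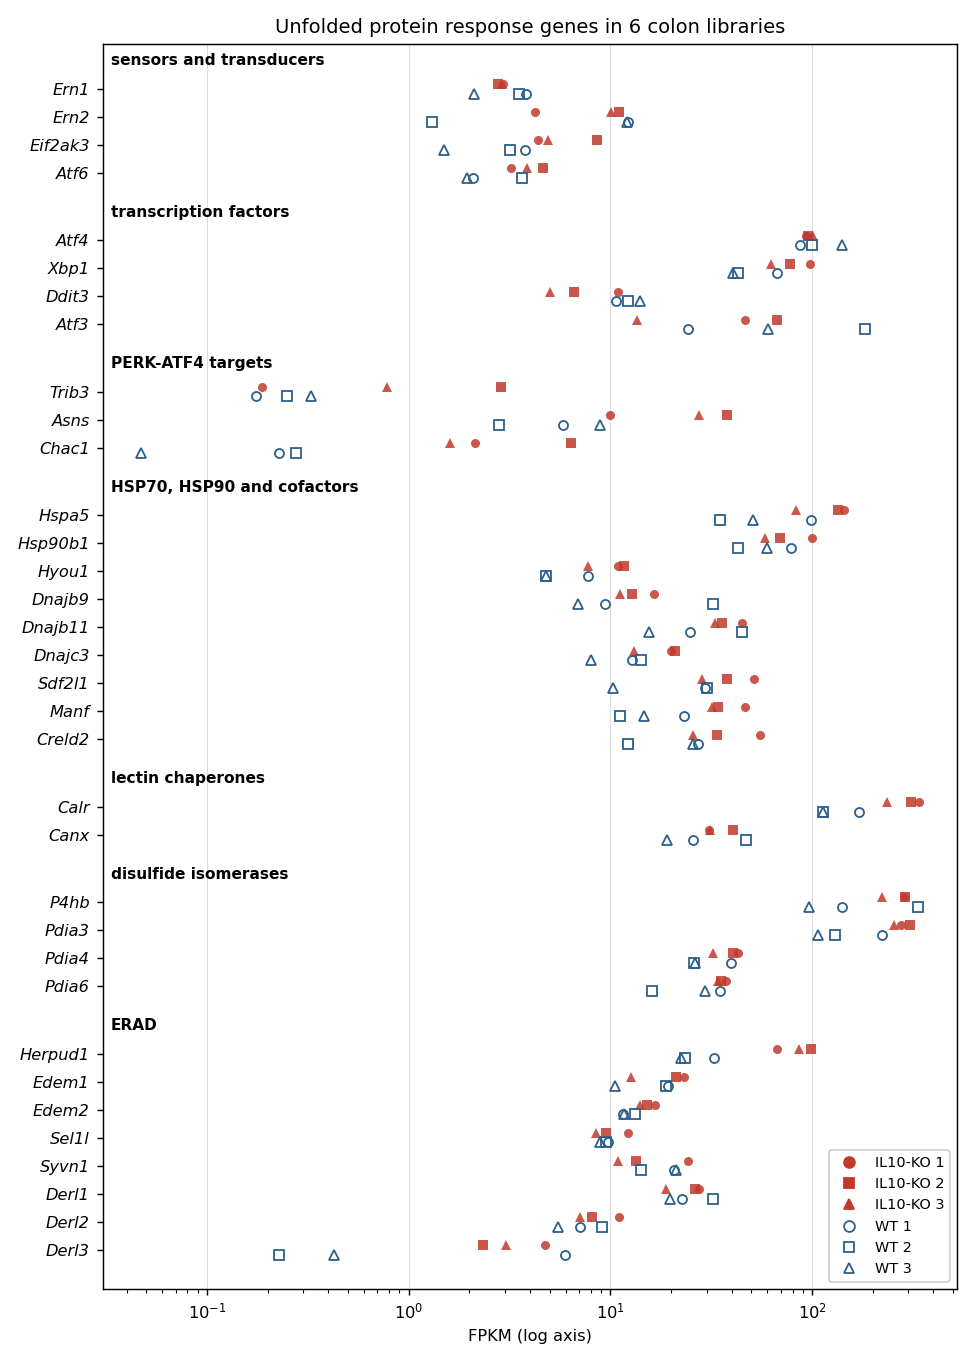
FPKM of the 34 members in each library on a log axis, grouped by role, with filled red marks for IL10-KO libraries and open blue marks for WT libraries, and the mark shape for the library number. Herpud1 and Chac1 show a clear gap between the groups, while most members overlap, and Chac1 passed the filter only through the IL10-KO libraries.

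The members did not differ alike in every library. The mean log2(FPKM + 1) over the members tested was 4.83, 4.85 and 4.47 in IL10-KO libraries 1 to 3, and 4.39, 4.20 and 4.0 in WT libraries 1 to 3. The groups did not overlap, with IL10-KO library 3 just above WT library 1. IL10-KO library 1 held the highest value of 14 members and IL10-KO library 2 that of 8, while IL10-KO library 3 held the highest of 0 and the lowest of 5. WT libraries 1 to 3 held the highest value of 3, 6 and 2 members. Of the WT libraries, WT library 3 held the lowest value of 17 members, WT library 2 of 9 and WT library 1 of 2. Over all genes tested, the median log2 value relative to each gene's own mean was -0.098 in WT library 3 and -0.051 to 0.030 in the others. For the members it was -0.57 in WT library 3. IL10-KO library 3 against WT library 1 was the closest pair: 16 of 33 members were higher in IL10-KO library 3, against 55.6% of all genes, and the median difference of the members was -0.0046. IL10-KO library 1 against WT library 3 had the widest median difference, 1.04, with 29 of 33 members higher against 55.2% of all genes. Members at an unadjusted p under 0.05 numbered 5 without WT library 3 (4.52% of all genes), 5 without IL10-KO library 2 (3.26%) and 11 without WT library 1 (7.16%). Members with all IL10-KO values above all WT values numbered 17 without IL10-KO library 3 (12.1% of all genes), 15 without WT library 1 (15.9%) and 15 without WT library 2 (26.4%). Such members numbered 9 without IL10-KO library 1 (15.7%), 8 without WT library 3 (11.5%) and 8 without IL10-KO library 2, against 8 with all libraries. Members with all IL10-KO values below all WT values numbered 2 without IL10-KO library 1 and 0 without IL10-KO library 2 or 3. They numbered 1 without each WT library in turn. Members with a log2 fold change above 1 numbered 10 without WT library 1, 3 with quantile normalization and 3 with library weights. The shares of all genes above 1 under these settings were not computed. The median of the members was 0.35 without WT library 3, and 0.28 with quantile normalization.

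**Figure D2:**
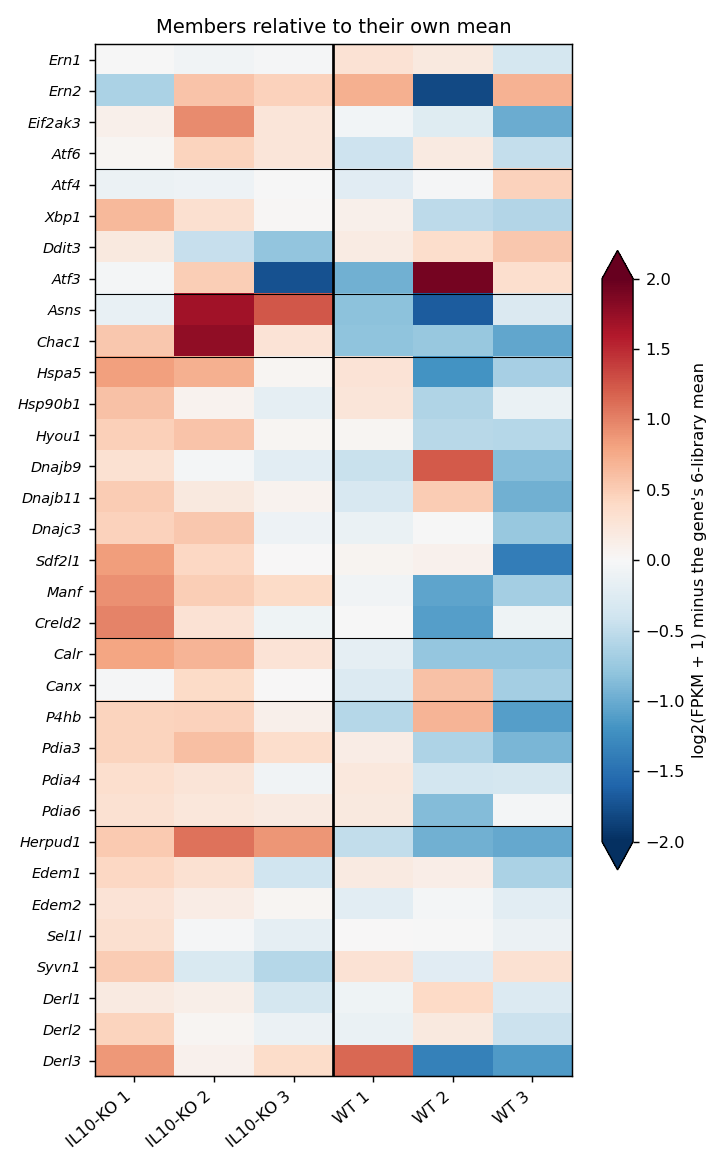
Value of each tested member in each library on the log2(FPKM + 1) scale, minus the mean of that member over the 6 libraries, with red above and blue below it and lines between roles. IL10-KO libraries 1 and 2 are mostly above the mean and WT library 3 mostly below, and the cells of WT library 2 run both ways, with Atf3 and Dnajb9 high and Ern2, Asns and Hspa5 low.

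The stretches upstream of the members with the largest differences are shown because these genes are known targets of different arms of the response. The RefSeq promoter table (GRCm38.p6) held 29 of the 34 symbols, among them 5 of the 6 with a log2 fold change above 1. Capitals mark whole matches on either strand, spacers included, to the ER stress element ERSE (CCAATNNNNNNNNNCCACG), to ERSE-II (ATTGGNCCACG), to the core of the unfolded protein response element (TGACGTG) or to the C/EBP-ATF element CARE (TGATGNAAN). ATF6 and XBP1 are known to act through the ERSE types, XBP1 and ATF6 through the core element, and ATF4 through CARE. Each sequence runs 5′ to 3′ on the strand of the gene and ends at the base before the RefSeq start. Gene starts in the deposited table can lie further upstream, as for Hspa5 and Asns.
Herpud1: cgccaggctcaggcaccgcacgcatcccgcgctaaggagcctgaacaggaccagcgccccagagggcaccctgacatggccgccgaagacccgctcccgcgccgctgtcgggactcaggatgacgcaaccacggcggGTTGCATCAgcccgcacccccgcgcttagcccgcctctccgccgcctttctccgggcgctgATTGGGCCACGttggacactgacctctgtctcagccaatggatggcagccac
Hspa5: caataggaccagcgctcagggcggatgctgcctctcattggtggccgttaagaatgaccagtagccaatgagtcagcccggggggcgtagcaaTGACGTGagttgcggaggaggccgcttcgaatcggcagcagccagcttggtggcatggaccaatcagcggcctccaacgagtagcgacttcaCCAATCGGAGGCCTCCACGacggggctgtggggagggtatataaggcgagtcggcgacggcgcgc
Calr: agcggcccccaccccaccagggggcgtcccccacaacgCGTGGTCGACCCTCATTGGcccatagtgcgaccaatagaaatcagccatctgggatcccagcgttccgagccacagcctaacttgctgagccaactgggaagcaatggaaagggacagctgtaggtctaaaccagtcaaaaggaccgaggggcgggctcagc
Chac1: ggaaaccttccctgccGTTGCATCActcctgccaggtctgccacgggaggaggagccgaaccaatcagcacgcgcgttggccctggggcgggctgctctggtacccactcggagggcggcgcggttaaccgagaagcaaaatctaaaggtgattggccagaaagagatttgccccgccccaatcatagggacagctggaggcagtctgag
Asns: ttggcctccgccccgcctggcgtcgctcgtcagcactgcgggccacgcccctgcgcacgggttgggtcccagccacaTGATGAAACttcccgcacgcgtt
They lie at chr8:94386179-94386428 on the plus strand, chr2:34771840-34772089 on the plus strand, chr8:84846932-84847131 on the minus strand, chr2:119351032-119351241 on the plus strand and chr6:7693210-7693309 on the minus strand.

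Herpud1 held an ERSE-II match from base -52 to -42 and a CARE match from -113 to -105, counted from the start with no base 0. Hspa5 held an ERSE from -65 to -47 and the core element from -157 to -151, Calr an ERSE from -162 to -144, Chac1 a CARE from -194 to -186 and Asns a CARE from -23 to -15. Over windows of 250 bases before to 50 after the start, ERSE matched 9 of 29 members (Calr, Canx, Creld2, Derl3, Dnajc3, Hsp90b1, Hspa5, Pdia6 and Syvn1) and 0.119% of 32851 promoter windows. ERSE-II matched Herpud1 and Dnajb11, and 0.0365% of windows. CARE matched Asns, Atf3, Chac1, Herpud1 and Trib3, and 3.95% of windows, and the core element matched Hspa5, and 2.01% of windows. The matches in Dnajb11 and Trib3 lay after the start, and no matches overlapped each other. Many members were first described as targets of these elements, so the shares are given as a description. Members with an ERSE match ranged in log2 fold change from -0.25 for Syvn1 to 1.16 for Calr, with a median of 0.60, and 8 of the 9 were above 0. The 4 tested members with a CARE match ranged from -0.86 for Atf3 to 1.85 for Asns.

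Among the sensors, Eif2ak3 (PERK) was higher in each IL10-KO library than in any WT library, Atf6 overlapped, and the IRE1 genes had estimates near 0 with wide intervals. Eif2ak3 was at 4.36, 8.59 and 4.89 FPKM in IL10-KO libraries 1 to 3, against 3.79, 3.19 and 1.5 FPKM in WT libraries 1 to 3. The groups did not overlap, and IL10-KO library 2 was highest. Its log2 fold change of 0.86 did not pass (SE 0.34, adjusted p = 0.473 in limma). Atf6 was at 3.22, 4.61 and 3.85 FPKM in the IL10-KO-labelled libraries, against 2.08, 3.64 and 1.94 FPKM in the WT-labelled ones. WT library 2 lay within the IL10-KO range, and the log2 fold change was 0.48 (SE 0.25, adjusted p = 0.571 in limma).

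Ern1, which encodes the broadly expressed IRE1 alpha, was at 2.93, 2.76 and 2.90 FPKM in the IL10-KO-labelled libraries, against 3.83, 3.52 and 2.11 FPKM in the WT-labelled ones. The 3 IL10-KO values lay inside the WT range. For Ern1 the log2 fold change was -0.08 with a 95% interval of -0.63 to 0.48, and it was 0.042 without WT library 1. Ern2, the IRE1 beta of mucosal epithelium, was at 4.22, 11.0 and 10.1 FPKM in the IL10-KO-labelled libraries, against 12.2, 1.30 and 12.1 FPKM in the WT-labelled ones. WT library 2 was lowest and the other WT libraries highest, and the log2 fold change was 0.27 with a 95% interval of -1.47 to 2.0. It was -0.57 without WT library 2. The ratio of Ern2 to Ern1 FPKM was 1.44, 3.98 and 3.49 in the libraries labelled IL10-KO, and 3.19, 0.37 and 5.74 in those labelled WT. Of the 8 other goblet markers, 3 (Muc2, Agr2 and Spdef) were also lowest in WT library 2 and 3 (Tff3, Fcgbp and Zg16) in WT library 3, while Clca1 and Atoh1 were lowest in IL10-KO libraries. Over all 9 goblet markers, Ern2 among them, the mean log2(FPKM + 1) was 6.89 to 7.36 in the IL10-KO libraries, and 7.40, 5.64 and 6.22 in WT libraries 1 to 3. The part of goblet cells in the values of Ern2 was not tested.

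The transcription factors split. Xbp1 had a positive difference, Ddit3 and Atf3 negative ones, and Atf4 mRNA an estimate near 0. Xbp1 was at 97.6, 77.6 and 62.7 FPKM in the IL10-KO-labelled libraries, against 66.7, 42.9 and 40.7 FPKM in the WT-labelled ones. Only IL10-KO library 3 fell below WT library 1, and the log2 fold change was 0.67 (SE 0.33, adjusted p = 0.553 in limma). Atf4, which is controlled mainly at translation, was at 93.8, 95 and 101 FPKM in the IL10-KO-labelled libraries, against 86.8, 99.6 and 141 FPKM in the WT-labelled ones. Its log2 fold change was -0.15 with a 95% interval of -0.88 to 0.59, and it was 0.052 without WT library 3.

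Ddit3 encodes CHOP, a factor that favours cell death when stress lasts. It was at 10.9, 6.57 and 5.01 FPKM in the IL10-KO-labelled libraries, against 10.6, 12.2 and 14.1 FPKM in the WT-labelled ones. The groups overlapped by IL10-KO library 1 alone, which lay just above WT library 1. The estimate for Ddit3 was -0.70 on the log2 scale (SE 0.31, adjusted p = 0.507 in limma), the only negative estimate among the 12 members with the smallest p. Ddit3 overlaps Mars on the other strand by 68 bases, and with the strand setting unknown, reads there cannot be assigned to either. Mars had a log2 fold change of 0.77. Atf3, an early stress factor also induced by tissue injury and handling, was at 46.6, 67.2 and 13.6 FPKM in the IL10-KO-labelled libraries, against 24.1, 183 and 60.2 FPKM in the WT-labelled ones. WT library 2 was highest and IL10-KO library 3 lowest, and the log2 fold change of -0.86 had a 95% interval of -2.89 to 1.17.

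Of the 3 PERK-ATF4 targets, Asns and Chac1 separated the groups and Trib3 did not, while the estimate for Atf4 mRNA was near 0. Chac1 passed the filter only through the IL10-KO libraries, so its separation is partly set by that selection. Asns, asparagine synthetase (chromosome 6, 7675169 to 7693254, minus strand, GRCm38), was at 9.94, 37.9 and 27.4 FPKM in the IL10-KO-labelled libraries, against 5.84, 2.80 and 8.88 FPKM in the WT-labelled ones. The groups did not overlap, and IL10-KO library 1 lay close to WT library 3. Mean FPKM was 4.29 times as high in the libraries labelled IL10-KO, and its log2 fold change was 1.85 (SE 0.56, adjusted p = 0.36 in limma). Relative to Atf4, Asns FPKM stood at 0.106, 0.399 and 0.272 in the libraries labelled IL10-KO, and at 0.0673, 0.0281 and 0.0631 in those labelled WT.

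Chac1, which breaks down glutathione, was at 2.13, 6.37 and 1.61 FPKM in the IL10-KO-labelled libraries, against 0.227, 0.278 and 0.0473 FPKM in the WT-labelled ones. These values rested on 44, 164 and 43 reads in the libraries labelled IL10-KO and on 6, 6 and 1 reads in those labelled WT. Every IL10-KO value was above every WT value. The estimate for Chac1 was 1.73 on the log2 scale (SE 0.42, adjusted p = 0.261 in limma) and 4.16 with a pseudocount of 0.01, so its size depends on the pseudocount. Trib3, a pseudokinase that feeds back on ATF4 and CHOP, was at 0.186, 2.87 and 0.779 FPKM in IL10-KO libraries 1 to 3, from 5, 96 and 27 reads. In the libraries labelled WT it was at 0.175, 0.25 and 0.328 FPKM, from 6, 7 and 9 reads. IL10-KO library 2 stood above the rest, IL10-KO library 1 was within the WT range, and with no filter the log2 fold change was 0.69 (adjusted p = 0.718 in limma). Asns, Chac1, Trib3 and Eif2ak3 all had their highest value in IL10-KO library 2, where the mean of the 9 smooth muscle markers was lowest at 3.49. The part of muscle in these values was not tested.

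The HSP70 and HSP90 chaperones and their cofactors had positive estimates for 9 of 9 genes, with a median log2 fold change of 0.72 and none called. Manf, a secreted protein that binds the HSP70 chaperone BiP, led them (chromosome 9, 106838312 to 106891979, minus strand). It was at 46.4, 34.2 and 31.9 FPKM in the IL10-KO-labelled libraries, against 23.1, 11.2 and 14.7 FPKM in the WT-labelled ones. The groups were apart, and the estimate for Manf was 1.19 on the log2 scale (SE 0.34, adjusted p = 0.34 in limma). Manf overlaps Rbm15b on the same strand, which had a log2 fold change of 0.06.

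Hspa5, which encodes BiP itself and is the standard readout of the response, was at 144, 134 and 83.5 FPKM in the IL10-KO-labelled libraries, against 98.9, 34.9 and 50.9 FPKM in the WT-labelled ones. IL10-KO library 3 lay below WT library 1, and WT library 2 was lowest. The estimate for Hspa5 was 1.05 on the log2 scale (SE 0.46, adjusted p = 0.507 in limma), with a range of 0.47 to 1.45 over the alternatives. Hyou1, the large chaperone that exchanges nucleotide on BiP, was at 10.9, 11.7 and 7.74 FPKM in the IL10-KO-labelled libraries, against 7.76, 4.82 and 4.77 FPKM in the WT-labelled ones. IL10-KO library 3 lay marginally below WT library 1, and the log2 fold change was 0.72 (SE 0.27, adjusted p = 0.459 in limma). Dnajc3, the BiP cochaperone also known as P58IPK, was at 19.9, 21.0 and 13.1 FPKM in the IL10-KO-labelled libraries, against 12.8, 14.1 and 7.99 FPKM in the WT-labelled ones. IL10-KO library 3 again fell within the WT range, and the log2 fold change was 0.60 (SE 0.31, adjusted p = 0.565 in limma).

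The remaining members of this role overlapped more. Sdf2l1, a partner of BiP, averaged 39.5 ± 11.6 FPKM in the libraries labelled IL10-KO and 23.3 ± 11.3 FPKM in the WT-labelled ones (SD, n = 3 each). Creld2, a disulfide isomerase-like protein, averaged 38.2 ± 15.1 FPKM in the IL10-KO libraries and 21.6 ± 8.20 FPKM in the WT libraries. Hsp90b1, the ER HSP90 known as GRP94, differed by 0.32 on the log2 scale, and by 0.10 without WT library 2. The BiP cochaperone Dnajb11 differed by 0.52, by 0.16 without WT library 3 and by 0.90 without WT library 2. Dnajb9, the cochaperone ERdj4 that helps to switch off IRE1, had an estimate of 0.03, with WT library 2 highest of all libraries at 32.2 FPKM. It was -0.38 without WT library 3 and 0.66 without WT library 2.

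Of the lectin chaperones, which hold glycoproteins during folding, Calr separated the groups and Canx did not. Calr, calreticulin (chromosome 8, 84841850 to 84846934, minus strand), was at 337, 311 and 235 FPKM in the IL10-KO-labelled libraries, against 171, 113 and 113 FPKM in the WT-labelled ones. Mean FPKM was 2.22 times as high in the IL10-KO libraries, and the log2 fold change was 1.16 (SE 0.34, adjusted p = 0.36 in limma). Canx, its membrane-bound relative calnexin, was at 30.7, 40.6 and 31.1 FPKM in the IL10-KO-labelled libraries, against 25.6, 47.1 and 19.1 FPKM in the WT-labelled ones. WT library 2 was highest, and the log2 fold change of 0.24 was -0.038 without WT library 3.

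The disulfide isomerases had positive estimates for 4 of 4 genes, with a median of 0.56. Pdia3, which works with the lectin chaperones, was at 275, 305 and 256 FPKM in the IL10-KO-labelled libraries, against 223, 130 and 107 FPKM in the WT-labelled ones. The groups did not overlap, by the margin of IL10-KO library 3 over WT library 1. Its log2 fold change was 0.93 (SE 0.38, adjusted p = 0.48 in limma). P4hb, the archetypal isomerase PDI, averaged 265 ± 36.2 FPKM in the libraries labelled IL10-KO and 191 ± 128 FPKM in the WT-labelled ones (SD, n = 3 each), where WT library 2 was the highest of all at 336 FPKM. Pdia4 and Pdia6 had log2 fold changes of 0.34 and 0.47. Pdia6 was at 34.2 to 37.5 FPKM in the IL10-KO-labelled libraries, against 16.1 to 34.9 FPKM in the WT-labelled ones.

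Herpud1, which organises the ERAD ubiquitin ligase complex, had the smallest p of all members. Herpud1 lies on chromosome 8 (94386438 to 94395377, plus strand) and reached 66.7, 99.0 and 85.8 FPKM in the IL10-KO-labelled libraries, against 32.6, 23.3 and 22.3 FPKM in the WT-labelled ones. The gap between IL10-KO library 1 and WT library 1 was wider than the FPKM range of either group. Mean FPKM was 3.21 times as high in the libraries labelled IL10-KO, and the log2 fold change was 1.65 (SE 0.30, adjusted p = 0.125 in limma). Over the alternatives the adjusted p lay between 0.0285, with a weight per library, and 0.679, without IL10-KO library 2, and the log2 fold change between 1.4 and 1.81. With 3 libraries a group, the smallest p of an exact permutation test, two-sided, is 0.1. Of the 12668 genes tested, 100 had a smaller p than Herpud1.

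Of the other ERAD members, 6 had estimates between -0.25 and 0.31. Edem2, a mannosidase-like factor that marks glycoproteins for degradation, was at 14.0 to 16.6 FPKM in the libraries labelled IL10-KO and at 11.6 to 13.3 FPKM in the WT-labelled ones. Its groups were apart by a small margin, and the log2 fold change was 0.31 (SE 0.21, adjusted p = 0.678 in limma). Edem1 had a log2 fold change of 0.22. The ligase Syvn1 and its partner Sel1l differed by -0.25 and 0.08 on the log2 scale. The derlins Derl1 and Derl2, thought to form part of the exit channel, differed by -0.03 and 0.24. The 95% interval for Sel1l was -0.45 to 0.61, which leaves room for changes of moderate size in either direction. Relative to Sel1l, Herpud1 FPKM stood at 5.45, 10.4 and 10.2 in the libraries labelled IL10-KO, and at 3.36, 2.45 and 2.53 in those labelled WT.

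Derl3, a derlin of strongly secretory cells, was at 4.73, 2.33 and 3.05 FPKM in the IL10-KO-labelled libraries, against 5.97, 0.228 and 0.427 FPKM in the WT-labelled ones. WT library 1 was highest and the other WT libraries were lowest. The mean of the 12 plasma cell markers, Derl3 among them, was 5.17, 4.47 and 4.58 in IL10-KO libraries 1 to 3, and 5.44, 3.33 and 3.22 in WT libraries 1 to 3, on the log2(FPKM + 1) scale. Jchain, the joining chain of secreted antibodies, was likewise highest in WT library 1 at 410 FPKM and lowest in WT library 3 at 27.3 FPKM. Other markers of the list peaked elsewhere, Sdc1 and Prdm1 in WT library 2, Pou2af1 in IL10-KO library 1 and Fkbp11 in IL10-KO library 3. The part of plasma cells in the values of Derl3 was not tested.

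**Figure D3:**
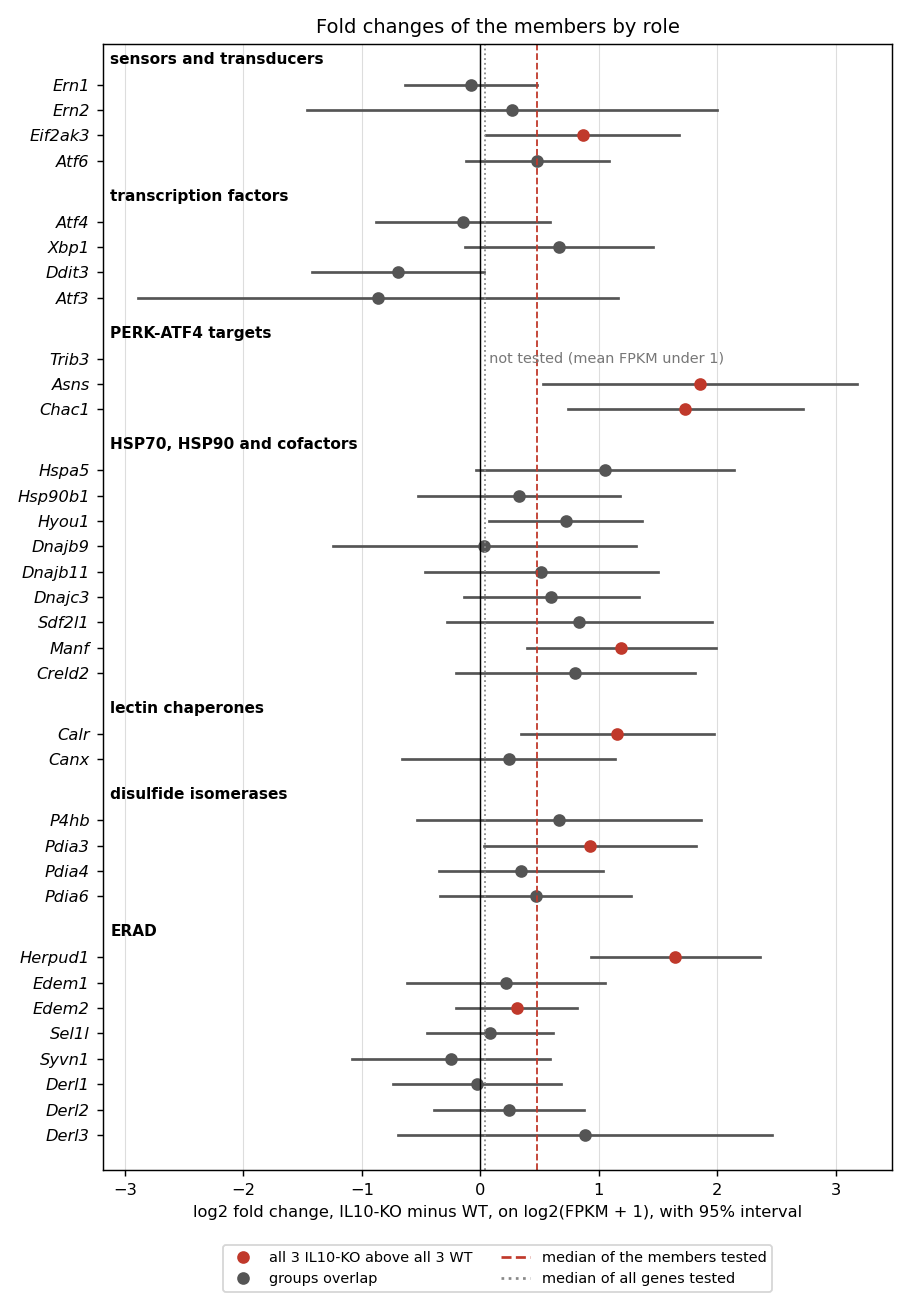
Log2 fold change of each tested member, IL10-KO minus WT, with its 95% interval from limma, by role, where red points have all 3 IL10-KO values above all 3 WT values and the vertical lines mark 0, the median of the members (0.48) and that of all genes (0.04). Herpud1, Asns and Chac1 lie furthest to the right, 25 of 33 intervals hold 0, and Atf3, Ddit3 and Syvn1 have the most negative points.

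Other genes of the pathway were taken from 8 lists of the integrated stress response, regulators, folding enzymes, ERAD, translocation, glycosylation and transport. Of 162 listed genes 154 were tested. By limma 0 were called higher, against 0.182% of all genes, and 0 lower, against 0%. At an unadjusted p under 0.05, 21 were higher, against 6.14% of all genes, and 2 lower, against 4.03%. Voom also called 0 of them, and limma with library weights called 4 higher, against 1.87% of all genes, and 1 lower, against 0.742%. The log2 fold change was above 0 for 125 of the 154, against 54.1% of all genes, and the median was 0.30. The integrated stress response list had the highest median, 0.68, with 21 of 24 tested genes above 0. Ddit4, an inhibitor of mTORC1 signalling that ATF4 and other stress factors induce, was at 32.3, 86.4 and 57.9 FPKM in the IL10-KO-labelled libraries, against 9.04, 7.94 and 9.13 FPKM in the WT-labelled ones. Its log2 fold change was 2.52 (SE 0.38, adjusted p = 0.0752 in limma), and it was called higher with library weights. Wars, the tryptophan tRNA synthetase that interferon-gamma also induces, was at 162, 268 and 179 FPKM in the IL10-KO-labelled libraries, against 72.3, 20.9 and 34.1 FPKM in the WT-labelled ones (log2 fold change 2.38, SE 0.50, adjusted p = 0.189 in limma). Nupr1 and Cebpb, both stress-responsive regulators, had log2 fold changes of 1.96 and 0.77.

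The machinery that takes proteins into the ER had positive estimates for most genes. Of 22 tested translocon and signal sequence genes, 19 were above 0 with a median of 0.40, and in 9 all IL10-KO values lay above all WT values, against 54.1% and 8.84% of all genes. Sec61b, a subunit of the translocation channel, was at 130, 127 and 141 FPKM in the IL10-KO-labelled libraries, against 60.6, 71.5 and 45.4 FPKM in the WT-labelled ones. Its log2 fold change was 1.17 (SE 0.30, adjusted p = 0.3 in limma). The channel subunits Sec61g and Sec61a1 differed by 1.23 and 0.995 and the translocon-associated Ssr2 by 0.85 on the log2 scale. Of 17 N-glycosylation genes, 16 were above 0 with a median of 0.53, and the genes with the smallest p were Ost4 (0.89), Dpagt1 (0.74), Stt3a (0.69) and Tusc3 (-0.60). Of 21 transport genes, 18 were above 0 with a median of 0.29, among them Mcfd2, Sec23b, Sec13 and Surf4 with log2 fold changes of 0.94, 0.52, 0.52 and 0.63.

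The lists closest to the sensors and to degradation lay nearer to 0. The ATF6 and IRE1 regulators had a median of 0.06, with Creb3 at 0.66, Creb3l2 at -0.56, Wfs1 at -0.28 and Creb3l4 at 0.63. The other ERAD genes had a median of 0.08, with Vcp, the ATPase that pulls proteins from the membrane, at 0.48, Yod1 at -0.39, Erlec1 at 0.60 and Selenos at 0.89. Other folding enzymes had a median of 0.29. Among them Ero1l, the oxidase that recharges disulfide isomerases, was at 12.6, 25.2 and 9.99 FPKM in the IL10-KO-labelled libraries, against 4.17, 5.62 and 1.73 FPKM in the WT-labelled ones (log2 fold change 1.80, SE 0.45, adjusted p = 0.289 in limma). Sil1 and Ppib differed by 0.73 and 0.66 on the log2 scale, and the prolyl isomerase Fkbp9 by -1.0. The ER stress death genes had a median of 0.25, with Bak1, Bax, Pmaip1 and Bcl2l11 at 1.24, 0.44, 0.55 and 0.25.

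**Figure D4:**
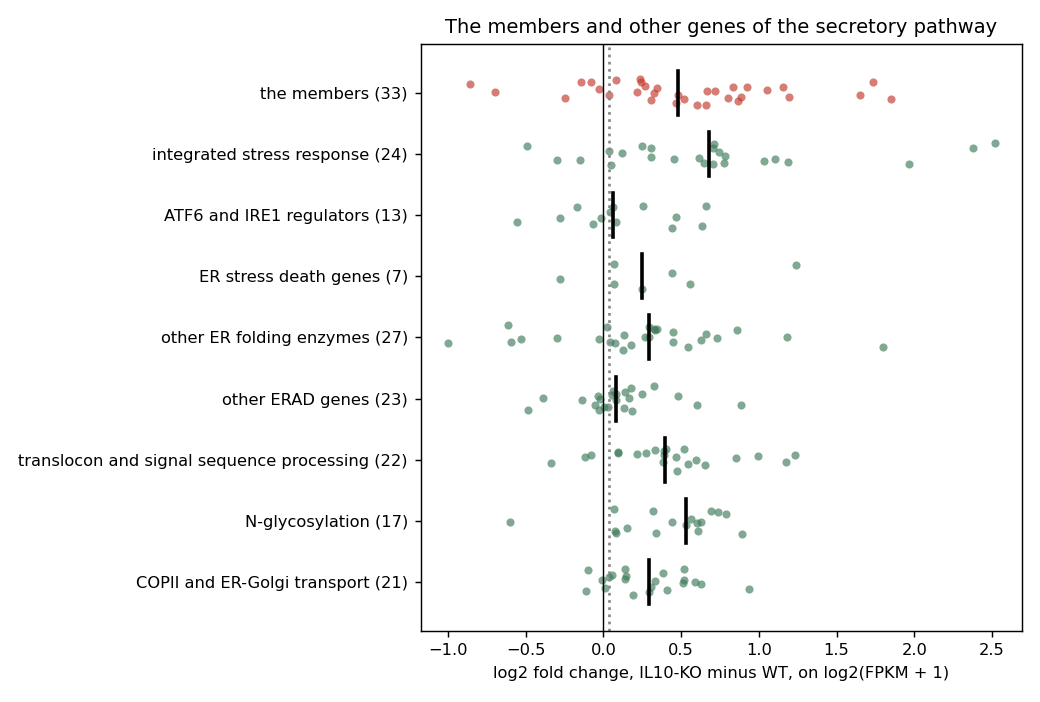
Log2 fold changes, IL10-KO minus WT, of the tested members and of the genes of 8 other pathway lists, with the number tested in brackets, a black bar at each median and a dotted line at the median of all genes (0.04). The integrated stress response list has the highest median (0.68) and the ATF6 and IRE1 regulators the lowest (0.06).

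Marker genes of the main cell types differed between the same libraries. The summed FPKM of 9 goblet markers was 3574 to 6495 in the libraries labelled IL10-KO and 1488 to 4896 in those labelled WT. That of 12 plasma cell markers was 5213 to 9789 in the libraries labelled IL10-KO and 598 to 19986 in those labelled WT. For 12 epithelial markers it was 9029 to 19719 in the libraries labelled IL10-KO and 2667 to 45669 in those labelled WT, where the absorptive gene Car1 made up most of WT library 2. For 9 smooth muscle markers it was 183 to 1034 in the libraries labelled IL10-KO and 1300 to 9089 in those labelled WT. None of these 4 lists held a gene at 0 reads in all libraries. WT library 3, which held the lowest value of 17 of 33 members, had the highest muscle sum and the lowest epithelial sum. It also had the largest mitochondrial share of reads, 43.4%, and the fewest genes with reads, 19618. The part of any of these in the members' values was not tested.

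Goblet and plasma cell list means were highest in WT library 1, at 7.40 and 5.44 on the log2(FPKM + 1) scale. The mean over the 7 tested of 10 neutrophil markers was 4.94, 5.72 and 5.18 in IL10-KO libraries 1 to 3, and 1.20, 0.26 and 0.80 in WT libraries 1 to 3. These means separated the groups, as those of the members did. Of the 7, 6 averaged under 1 FPKM in the WT libraries and so passed the filter through the IL10-KO libraries alone, and S100a9, Cxcr2 and Retnlg had no reads in the WT libraries. Smooth muscle list means separated the groups in the opposite direction. They were 5.57, 3.49 and 5.42 in IL10-KO libraries 1 to 3, and 6.08, 6.05 and 8.59 in WT libraries 1 to 3. Fibroblast markers summed to 64.9 to 103 FPKM in the libraries labelled IL10-KO and to 68.3 to 240 FPKM in the WT-labelled ones. Neuron and glia markers summed to 10.9 to 37.4 FPKM in the IL10-KO libraries and to 33.4 to 238 FPKM in the WT libraries. Macrophage and monocyte markers summed to 96.6 to 189 FPKM in the IL10-KO libraries and to 77.4 to 177 FPKM in the WT libraries. The 13 acinar markers summed to 29.5 to 128 FPKM in the IL10-KO libraries, and to 91.8 to 262 FPKM in the WT libraries, where Sycn made up most of the sum. Ctrb1, Prss2, Pnlip, Cpa1, Cela2a and Cela3b were highest in IL10-KO library 3, and Ptf1a was at 0 in every library. Without IL10-KO library 3 the median of the members was 0.50. The part of any cell type in the differences of the members was not tested.

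**Figure D5:**
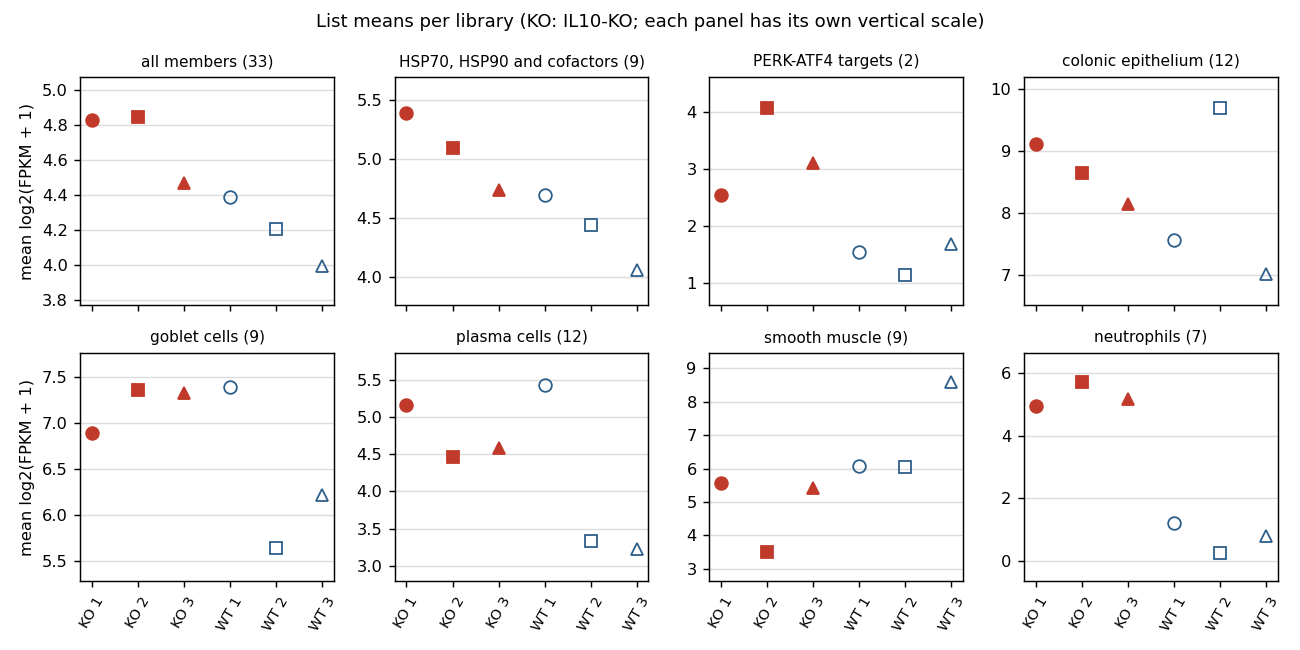
Mean log2(FPKM + 1) per library for the members tested, 2 of their roles and 5 cell type marker lists, with filled red marks for IL10-KO and open blue marks for WT, the number of genes in brackets and a separate vertical scale per panel. The mean of the members is above every WT library in all 3 IL10-KO libraries, 4.47 to 4.85 against 4.0 to 4.39. Only 16 of 33 members were higher in IL10-KO library 3 than in WT library 1, against 55.6% of all genes. Smooth muscle markers peak in WT library 3.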

How the data were processed

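Per the labels' protocols, colon RNA was extracted with Trizol and made into libraries with an NEBNext Ultra kit. Bowtie 0.12.2 is listed in the submitters' processing notes, which also list hg38 and mm8 as builds without saying what each was for. The authors deposited FPKM values for 54532 genes with coordinates and lengths, per the file headers. The counter, its strand setting and its treatment of multiply mapped reads are not stated in the sources used here. Of 54409 gene identifiers found in GENCODE M21, 98.3% had identical coordinates, so coordinates are given as GRCm38.

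Multiplying FPKM by gene length gave whole numbers of a step fixed for each library in 100% of values above 0, within 0.01, and from these came the reads quoted. Read numbers cover counting error only. The library size implied by that step was 0.836 to 1.23 times the recovered total. Libraries compared in pairs differed by a chi-square per gene of 60.7 or more, so none was a second sequencing of another. That does not show whether each came from its own mouse.

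The 12668 genes averaging 1 FPKM or more were tested on log2(FPKM + 1) with limma 3.58.1 (eBayes with the mean trend, no block) in R 4.3.3, with Benjamini-Hochberg adjustment over all genes and a threshold of 0.05. The fit was tested on simulated data with the same spread in both groups, so that test does not cover the unequal spread seen here. The other steps ran in Python 3.11.15 with matplotlib 3.10.9 for plots, pandas 2.3.3 for tables and numpy 2.4.6. Promoters came from RefSeq (GRCm38.p6).

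Groups and numbers came from the sample titles. The members, lists, tests and alternatives were chosen with earlier results of these data known. Values of every library are given for sensors, transcription factors and the 12 members with the smallest p, and of each other pathway list up to 4 genes with the smallest p are named. Values per library of Canx, Derl3, Trib3, Jchain and other markers were picked by role after their values were seen. Alternatives were pseudocounts of 0.1 and 0.01, no filter or a mean FPKM of at least 0.1 or 5, quantile normalization, median centring, no mean trend, library weights, a replicate block, voom on the recovered reads and leaving out each library.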

Additional observations from a re-analysis of the deposited data

How the results depend on the processing

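No member was called under 16 of the 17 alternatives. With a weight per library 1 of 33 was called higher, Herpud1, against 1.87% of all genes. Those weights were 1.01, 2.62 and 1.49 for IL10-KO libraries 1 to 3 and 2.76, 0.198 and 0.465 for WT libraries 1 to 3. Genes called higher numbered 23 with the settings as reported, and 237 with library weights, 4 with no filter, 9 with a pseudocount of 0.01, 7 with the replicate block, 2 with voom on the recovered reads and 4 to 27 with a library left out. Genes called lower numbered 0 as reported, and 94 with library weights, 1 at a mean FPKM of at least 5, 1 with quantile normalization and 0 to 3 with a library left out. The median of the members was 0.28 to 0.57 over the alternatives, and 0.35 to 0.57 with a library left out. Of the 33 tested members, 22 kept the sign of their log2 fold change under every alternative and 11 did not. With library weights Ern2 was at -0.26, Atf4 at 0.0441, Atf3 at 0.35, Hsp90b1 at -0.0465, Derl1 at 0.0787 and Derl3 at -0.37. With median centring Dnajb9 was at -0.00989. With a library left out, estimates of members that changed sign ranged from -0.29 to 0.0525 for Atf4, -0.0382 to 0.59 for Canx, -0.17 to 0.16 for Derl1, -0.38 to 0.66 for Dnajb9, -0.0451 to 0.47 for Edem1, -0.28 to 0.042 for Ern1, -0.57 to 0.69 for Ern2 and -0.0565 to 0.19 for Sel1l. Creb3l4, which is no member, ranged from -0.0393 to 1.04. The cause of these moves was not tested. Replicate numbers are shared by both groups. Deviations from the group means correlated at -0.15, 0.18 and 0.40 for same-numbered libraries and at -0.39 to 0.18 for different-numbered ones. These values cannot settle whether the numbers pair the libraries, and the settings as reported did not pair them. With the replicate block 0 members were called, and the members' median was 0.48. Chac1 and Trib3 rest on 13 and 22 reads over the WT libraries, which limits the size given for them.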
